A study of Rattus norvegicus with 9 samples.

Results

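The genes described here are 36 of the 17315 genes counted in cultured rat horizontal basal cells, and they encode factors that build ribosomes together with subunits of RNA polymerase I. They were chosen by symbol, with earlier results of these data known: names that begin with Nop, Utp, Rrp or Gnl and a digit, Polr1a to Polr1f, and Ncl, Npm1, Fbl, Dkc1, Bop1, Pes1, Wdr12, Nhp2 and Gar1. Of these 36, 35 passed the filter on low counts and were tested. Nhp2, a core protein of box H/ACA particles, was listed with 0 reads in all 9 libraries, which at a floor of 3 counts allows a level of up to 0.129 to 0.260 CPM (counts per 1e+06 reads of the scaled library total) in a library. That ceiling holds only if the gene model behind the tables collects the reads of Nhp2, which was not tested, and Polr2h, a subunit shared by the nuclear polymerases, was likewise at 0 in all 9 libraries.

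RNA polymerase I transcribes the long precursor of ribosomal RNA in the nucleolus. Small nucleolar ribonucleoproteins (snoRNPs) then modify that precursor, the box C/D class by methylation and the box H/ACA class by pseudouridylation. Processing complexes fold and cut it into the parts of the small and the large ribosomal subunit, and in proliferating cells this pathway takes up a large share of the cell's resources.

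Horizontal basal cells are stem cells held in reserve at the base of the olfactory epithelium. The cells came from rats of strain SD, were grown in primary culture with the antibiotic Primocin, and were used at passage 7. One group received 0.1% DMSO as vehicle and is labelled time 0, another received 50 nM phorbol 12-myristate 13-acetate (PMA), which activates protein kinase C, for 6 h, and the last received 50 nM PMA for 12 h, with 3 libraries in each group. Vehicle libraries at 6 h or 12 h are not part of the design, so PMA and time in culture cannot be told apart, and in bulk RNA fewer cells of a type and less RNA per cell cannot be told apart either. Whether libraries of 1 group are separate cultures, separate animals or repeats of 1 culture is not labelled, and the p-values therefore cover the spread among these libraries alone. Both PMA groups were compared with the same vehicle libraries, so their values are not independent.

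Libraries held 13601635 to 19001819 reads in genes. Levels are in CPM, given as mean ± SD of 3 libraries where no single values are shown, and library values are listed in the order of replicates 1, 2 and 3. A log2 fold change of -1 is a halving, and it is given ± its standard error. Adjusted p values come from the quasi-likelihood test of edgeR and were adjusted by Benjamini and Hochberg's method over 10128 genes, and a gene is called higher or lower where it is under 0.05. The summed level of 9 horizontal basal cell markers was 15790 to 18680 CPM in vehicle, 2837 to 3520 CPM at 6 h and 4432 to 5122 CPM at 12 h, and the keratins Krt5 and Krt14 (means of 6827 and 5325 CPM in vehicle) carried most of the vehicle sum. Of these 9 markers 8 fell and 1 rose at 6 h (39.0% and 37.8% of all genes). At 12 h 7 fell and 2 rose (38.2% and 37.7% of all genes), and Icam1 (1.33) and Egfr (0.64) were the 2 higher on the log2 scale. Among markers of other cells, 8 of 12 neuronal, 5 of 8 sustentacular, 5 of 7 respiratory, 7 of 9 fibroblast, 6 of 7 immune and 6 of 7 endothelial and glial genes were under 1 CPM in every group. The sustentacular sum, mostly the keratin Krt8, went from 1207 to 1412 CPM in vehicle to 1954 to 2015 CPM at 6 h and 2189 to 2530 CPM at 12 h, and the immune sum, mostly the lysosomal protein Cd68, from 18.5 to 21.1 CPM to 69.0 to 71.8 CPM and 81.0 to 93.0 CPM. The part of these cell type markers in the results below was not tested.

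After 6 h in PMA, most ribosome biogenesis genes were lower than in vehicle. Of the 35 tested, 26 fell, against 39.0% of all genes tested, 4 rose, against 37.8%, and 5 were not called (76.8% of all genes were called one way or the other). The median log2 fold change was -0.66 for these 35 genes and -0.03 for all genes. The fall reached at least 2-fold in 10 of them, against 21.0% of all genes. In 27 genes every 6 h library lay below every vehicle library (40.3% of all genes), in 5 every one lay above (38.6%), and in 3 the groups overlapped.

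At 12 h the fall took in more of the genes and was deeper. Against vehicle, 31 of 35 fell (38.2% of all genes), 1 rose (37.7%) and 3 were not called, where 75.8% of all genes were called in either direction, and the median was -1.08 beside -0.02 for all genes. The 31 genes that fell included 20 that fell at least 2-fold, against 20.4% of all genes. Library values were apart in 31 genes with all 12 h libraries lower (40.0% of all genes) and in 1 with all higher (38.7%).

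Between 6 h and 12 h, 25 of the 35 genes fell further (25.8% of all genes), 1 rose (25.3%) and 9 were not called (51.1% of all genes were called in either direction), with a median of -0.41 beside 0.01 for all genes. Only Utp18 fell by more than 2-fold over this interval, against 5.44% of all genes. The library values did not overlap in 25 genes that were lower at 12 h (29.6% of all genes) and in 1 that was higher (28.5%). Over all 3 groups together, 33 of the 35 differed, against 87.3% of all genes, and Gnl3 and Polr1c are described with their values below.

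**Figure D1:**
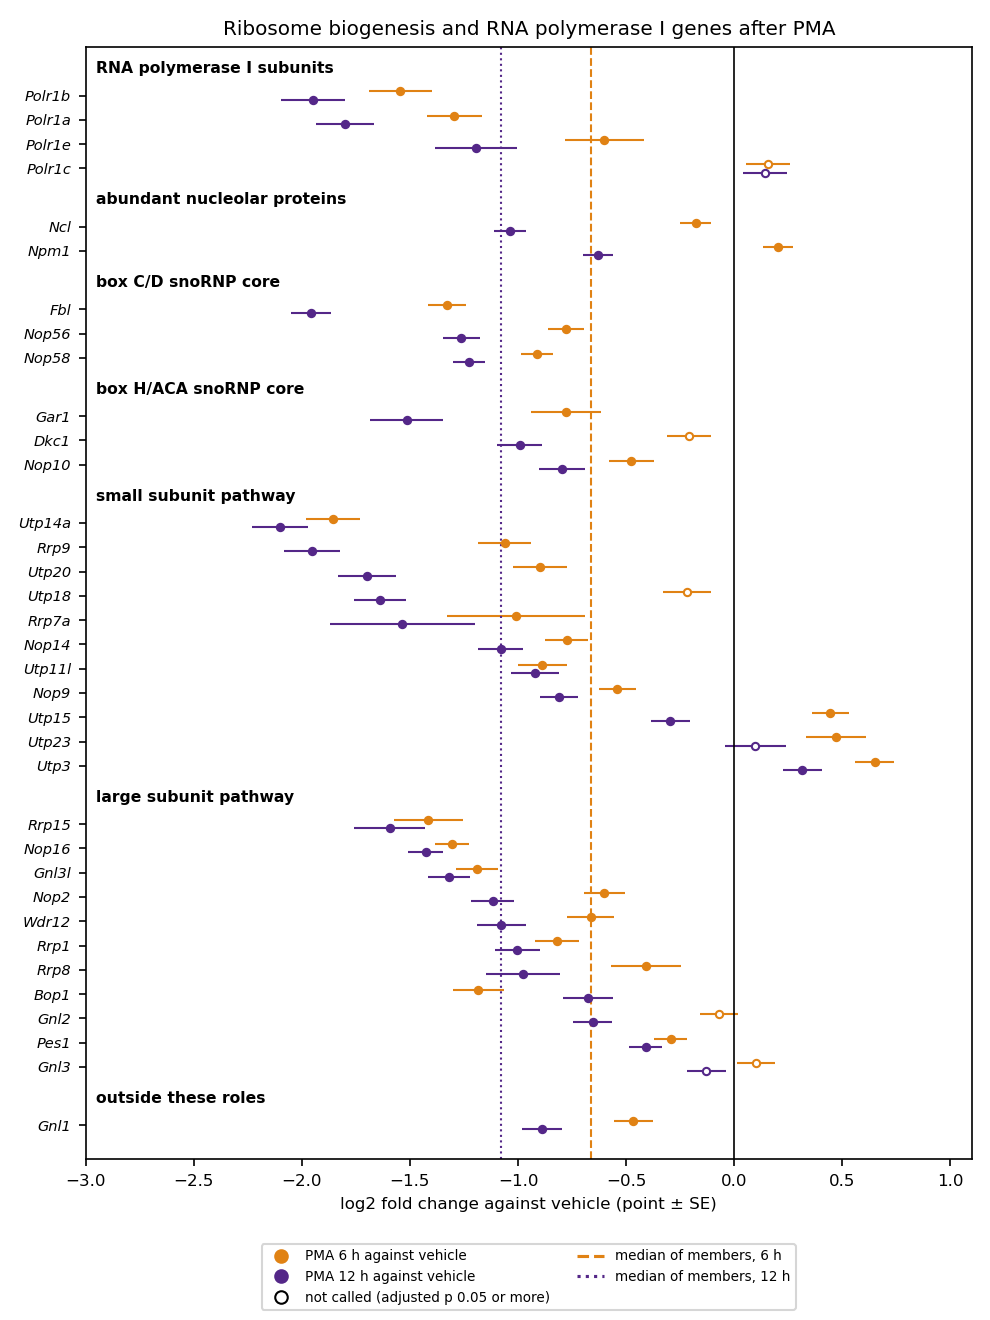
Log2 fold change against vehicle (x axis, point ± SE) of each of the 35 tested genes, grouped by role, at 6 h (orange) and 12 h (purple), with open points where the gene was not called. Most points lie left of 0, the 12 h points mostly left of the 6 h points, and the dashed and dotted lines mark the medians of -0.66 and -1.08.

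The plot of cumulative shares sets these 35 genes beside all genes tested. At 6 h and at 12 h the ribosome biogenesis genes ran from -1.86 to 0.65 and from -2.10 to 0.32, while all genes reached from -11.67 to 9.37 and from -11.95 to 9.31. Scaling matters for the zero of this axis: with library totals alone, the median of all genes moved to -0.57 at 6 h and -0.60 at 12 h, and 22.5% of all genes were called higher and 57.8% lower at 6 h (20.9% and 59.4% at 12 h). Relative to the median of all genes, the members' median stayed at -0.63 at 6 h and -1.06 at 12 h with either scaling. Scaling shifts all genes of a library alike, so this difference could hardly move and does not test the fall.

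**Figure D2:**
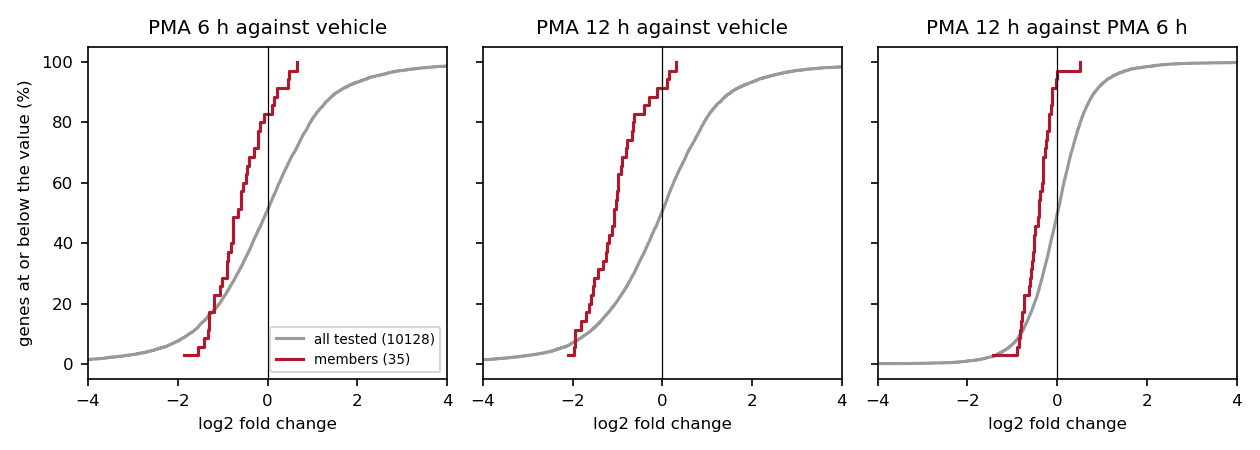
Cumulative share of genes (y axis, percent) at or below each log2 fold change (x axis) for all 10128 genes tested (grey) and the 35 ribosome biogenesis genes (red), 1 panel per comparison. The red curve lies left of the grey curve over most of its height in each panel, with medians of -0.66, -1.08 and -0.41.

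The 4 subunits of RNA polymerase I taken in by the naming rule were split. Polr1a, Polr1b and Polr1e fell at both times, and Polr1c was not called in any comparison with the main scaling. Other subunits, such as Znrd1, which rose, are among the partners given below. Polr1a, the largest catalytic subunit, was at 56.8, 48.8 and 49.4 CPM in vehicle, 25.7, 19.1 and 18.5 CPM at 6 h and 14.2, 16.0 and 14.3 CPM at 12 h. No group overlapped another. Its log2 fold change was -1.29 ± 0.13 at 6 h (adjusted p = 6.37e-08) and -1.80 ± 0.13 at 12 h (adjusted p = 1.45e-09), with a further -0.51 ± 0.14 between the times (adjusted p = 0.00509). Polr1b, which completes the active centre with Polr1a, was at 32.7, 32.7 and 34.6 CPM in vehicle, 12.8, 12.3 and 9.25 CPM at 6 h and 8.85, 9.51 and 7.46 CPM at 12 h. All PMA libraries lay below vehicle, and the 6 h and 12 h libraries overlapped. The changes were -1.54 ± 0.14 (adjusted p = 2.96e-08), -1.95 ± 0.15 (adjusted p = 2.33e-09) and, between the times, -0.40 ± 0.16 (adjusted p = 0.0382).

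Polr1e, a subunit of the initiation-competent enzyme, had 13.6, 13.5 and 13.2 CPM in vehicle, 9.41, 10.3 and 6.94 CPM at 6 h and 5.99, 6.75 and 4.77 CPM at 12 h. Each step was downward in all libraries. It changed by -0.60 ± 0.18 at 6 h (adjusted p = 0.00647) and -1.19 ± 0.19 at 12 h (adjusted p = 2.07e-05), of which -0.59 ± 0.20 lay between the times (adjusted p = 0.0176). Polr1c, which RNA polymerase I shares with RNA polymerase III, stood at 36.6, 33.5 and 31.5 CPM in vehicle, 39.2, 39.7 and 34.5 CPM at 6 h and 36.3, 36.8 and 39.3 CPM at 12 h. The ranges of its groups overlapped at 6 h and at 12 h alike. Its log2 fold change was 0.15 ± 0.10 at 6 h (adjusted p = 0.171) and 0.14 ± 0.10 at 12 h (adjusted p = 0.208), and it turned negative with upper-quartile scaling (-0.10 and -0.13, not called). With library totals alone it was called lower at both times, at -0.38 (adjusted p = 0.00215) and -0.44 (adjusted p = 0.00075). The step between the times rested on few libraries for Polr1e and Polr1b. For Polr1e it was -0.55 without 6 h library 1 and -0.47 without 6 h library 2 or 12 h library 3, all no longer called. For Polr1b it was -0.32 without 6 h library 1, -0.35 without 6 h library 2, -0.31 without 12 h library 3, -0.42 without 12 h library 1 and -0.40 without vehicle library 2, also not called, nor was it by limma-voom (-0.37).

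The abundant nucleolar proteins Npm1 and Ncl held most of their level at 6 h and fell at 12 h. Ncl encodes nucleolin, which binds the ribosomal RNA precursor. It was at 1515, 1374 and 1369 CPM in vehicle, 1283, 1289 and 1193 CPM at 6 h and 680, 685 and 711 CPM at 12 h. The 12 h libraries sat far below both other groups, and the 6 h libraries only just below vehicle. The 6 h change was -0.18 ± 0.07 (adjusted p = 0.0339) and the 12 h change -1.04 ± 0.07 (adjusted p = 7.89e-10), with -0.86 ± 0.07 from 6 h to 12 h (adjusted p = 6.47e-08). The 6 h call of Ncl was lost without vehicle library 1 (-0.13) and without 6 h library 1 (-0.19), 2 (-0.20) or 3 (-0.16).

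Npm1 encodes nucleophosmin, a histone chaperone and scaffold of the outer nucleolus. Its libraries held 1965, 1816 and 1877 CPM in vehicle, 2179, 2069 and 2263 CPM at 6 h and 1236, 1236 and 1184 CPM at 12 h. It was highest at 6 h and lowest at 12 h, with no overlap between any groups. It rose by 0.20 ± 0.07 at 6 h (adjusted p = 0.0152) and was -0.63 ± 0.07 at 12 h (adjusted p = 3.49e-07), a step of -0.83 ± 0.07 between the times (adjusted p = 7.04e-08). The small rise depended on scaling, since upper-quartile scaling gave -0.05 and library totals alone -0.33, which was called lower (adjusted p = 0.000449). With the main scaling the rise was not called without vehicle library 2 (0.17) or 6 h library 3 (0.16). Npm1 has processed copies in mammalian genomes, and reads that map to several places were not counted to genes, so its level is uncertain.

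All 3 core proteins of box C/D particles fell at 6 h and again at 12 h. Fbl encodes fibrillarin, the methyltransferase of these particles. Its levels were 105, 107 and 116 CPM in vehicle, 44.5, 45.2 and 40.6 CPM at 6 h and 26.3, 27.2 and 30.8 CPM at 12 h. The groups were far apart beside their spread. The log2 fold change was -1.33 ± 0.09 at 6 h (adjusted p = 3.81e-10) and -1.96 ± 0.09 at 12 h (adjusted p = 3.91e-12), with -0.63 ± 0.09 between them (adjusted p = 3.07e-05). Nop56 and Nop58 are the paired scaffold proteins that hold the guide RNA. Nop56 was at 274, 237 and 248 CPM, then 163, 136 and 144 CPM, then 113, 100.2 and 102 CPM. Nop58 was at 249, 230 and 264 CPM, then 137, 124 and 134 CPM, then 109, 107 and 102 CPM. Both moved down in step, with no overlap between groups. At 6 h they changed by -0.78 ± 0.08 and -0.91 ± 0.07 (adjusted p = 1.83e-07 and 4.43e-09), and at 12 h by -1.26 ± 0.09 and -1.23 ± 0.08 (adjusted p = 4.24e-10 and 1.12e-10). The change between the times was -0.48 ± 0.09 for Nop56 and -0.31 ± 0.08 for Nop58 (adjusted p = 0.00015 and 0.00224).

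Of the 3 measured box H/ACA core genes, Gar1 and Nop10 fell at both times and Dkc1 at 12 h. Dkc1 encodes dyskerin, the pseudouridine synthase, which telomerase also contains. It was at 141, 131 and 125 CPM in vehicle, 128, 117 and 98.4 CPM at 6 h and 61.2, 61.9 and 76.7 CPM at 12 h. The 6 h range ran into the vehicle range, and all 12 h libraries were lower. Its 6 h change of -0.21 ± 0.10 was not called (adjusted p = 0.0719), while it changed by -0.99 ± 0.10 at 12 h (adjusted p = 1.86e-07) and by -0.78 ± 0.11 from 6 h to 12 h (adjusted p = 1.13e-05). Without 6 h library 1 the 6 h change was -0.29 and was called, as it was without 12 h library 3 (-0.21) and with no filter on low counts (-0.22). It was also called lower at 6 h with upper-quartile scaling (-0.47, adjusted p = 0.000587) and with library totals alone (-0.75, adjusted p = 1.19e-06).

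Gar1, which helps load and release the substrate RNA, was at 22.1, 24.5 and 26.6 CPM in vehicle, 17.4, 14.1 and 11.2 CPM at 6 h and 8.98, 7.34 and 9.28 CPM at 12 h. It fell in each step, with the widest spread at 6 h. The changes were -0.78 ± 0.16 at 6 h (adjusted p = 0.00031), -1.52 ± 0.17 at 12 h (adjusted p = 3.14e-07) and -0.74 ± 0.17 between them (adjusted p = 0.00187). Nop10, a small structural protein of the same particle, was at 50.5, 52.6 and 54.9 CPM, then 37.4, 35.9 and 40.3 CPM, then 32.4, 32.8 and 25.7 CPM. Its groups were in the same order without overlap. It changed by -0.48 ± 0.10 (adjusted p = 0.000519), -0.80 ± 0.11 (adjusted p = 2.78e-06) and, between the times, -0.32 ± 0.11 (adjusted p = 0.02), a step not called without 6 h library 3 (-0.27) or 12 h library 3 (-0.22).

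The 11 genes of the small subunit pathway, most of which encode parts of the processome that assembles on the early precursor, were the most varied. At 6 h 7 fell, 3 rose and 1 was not called, and at 12 h 9 fell, 1 rose and 1 was not called. The shares that fell, 63.6% and 81.8%, stood beside 39.0% and 38.2% of all genes, and the 27.3% that rose at 6 h beside 37.8%. Utp14a, which activates a helicase of the processome, was at 49.3, 50.1 and 54.0 CPM in vehicle, 13.7, 13.5 and 15.1 CPM at 6 h and 10.7, 14.3 and 10.7 CPM at 12 h. It had reached its low level by 6 h, and the PMA groups overlapped. Its changes of -1.86 ± 0.13 at 6 h (adjusted p = 4.01e-10) and -2.10 ± 0.13 at 12 h (adjusted p = 1.15e-10) were the largest falls among the 35 genes. The step between them was -0.25 ± 0.13 (adjusted p = 0.137), and it was called, at -0.40, without 12 h library 2.

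Rrp9, a protein of the U3 snoRNP, took both steps: 67.4, 61.8 and 57.4 CPM in vehicle, 33.7, 32.0 and 23.9 CPM at 6 h and 15.1, 17.1 and 16.0 CPM at 12 h. The 12 h libraries were tight and below all others. It changed by -1.06 ± 0.12 (adjusted p = 4.14e-07) and -1.95 ± 0.13 (adjusted p = 3.14e-10), with -0.89 ± 0.13 between the times (adjusted p = 2.52e-05). Utp18, which binds the helicase of the RNA exosome, was the late case: 38.5, 35.5 and 31.5 CPM in vehicle, 31.1, 29.9 and 29.9 CPM at 6 h and 10.3, 12.1 and 11.5 CPM at 12 h. The 6 h libraries lay just under the lowest vehicle library, and the 12 h libraries lay far below. Its 6 h change of -0.22 ± 0.11 was not called (adjusted p = 0.0856) but was called, at -0.29, without vehicle library 3, at -0.48 with upper-quartile scaling (adjusted p = 0.00104) and at -0.76 with library totals alone (adjusted p = 7.86e-06). It changed by -1.64 ± 0.12 at 12 h (adjusted p = 1.33e-09), and its step of -1.42 ± 0.12 after 6 h (adjusted p = 7.04e-08) was the largest of the 35 genes.

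Utp3, Utp15 and Utp23 rose at 6 h. Utp3, known in yeast as Sas10, was at 65.9, 59.4 and 63.0 CPM in vehicle, 109, 88.4 and 97.8 CPM at 6 h and 76.6, 74.4 and 83.3 CPM at 12 h. It was highest at 6 h and still above vehicle at 12 h in all libraries. The changes were 0.65 ± 0.09 at 6 h (adjusted p = 3.6e-06), 0.32 ± 0.09 at 12 h (adjusted p = 0.00427) and -0.33 ± 0.09 between them (adjusted p = 0.00487). The 12 h rise was 0.04 and not called with upper-quartile scaling. With library totals alone the 6 h change was 0.11 and not called. The 12 h change then turned to -0.27 and was called lower (adjusted p = 0.0132). Utp15, of the subcomplex that joins the precursor first, was at 55.2, 48.3 and 50.3 CPM, then 67.0, 70.1 and 72.2 CPM, then 42.8, 42.7 and 39.8 CPM. It was above vehicle at 6 h and below it at 12 h, with no overlap. It rose by 0.44 ± 0.09 (adjusted p = 0.000169), stood at -0.29 ± 0.09 at 12 h (adjusted p = 0.00614) and changed by -0.74 ± 0.09 between the times (adjusted p = 2.93e-06), but the 6 h rise was 0.19 and not called with upper-quartile scaling and -0.09 with library totals alone.

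Utp23, which is needed for release of a guide RNA from the processome, was at 15.6, 15.2 and 18.7 CPM in vehicle, 21.7, 25.4 and 21.5 CPM at 6 h and 15.4, 19.8 and 17.8 CPM at 12 h. Its 12 h libraries overlapped vehicle, and the 6 h libraries stood above both. It rose by 0.47 ± 0.14 at 6 h (adjusted p = 0.00486; 0.22 and not called with upper-quartile scaling, -0.07 with library totals alone), was 0.10 ± 0.14 at 12 h (adjusted p = 0.535) and changed by -0.37 ± 0.14 between the times (adjusted p = 0.0339). That last step was not called without 6 h library 2 (-0.29), 12 h library 1 (-0.28) or 12 h library 3 (-0.38).

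The other 5 small subunit genes, Utp20, Nop14, Nop9, Utp11l and Rrp7a, fell at both times, with changes of -0.54 to -1.01 at 6 h and -0.81 to -1.70 at 12 h. Utp20, a very large scaffold protein, had the strongest 12 h fall of these, from 48.9 ± 4.80 CPM in vehicle to 26.2 ± 3.70 CPM and then 15.1 ± 1.74 CPM. Utp11l went from 63.0 ± 7.49 CPM to 34.0 ± 3.69 CPM at 6 h and stood at 33.2 ± 2.56 CPM at 12 h, a step of -0.03 ± 0.11 that was not called (adjusted p = 0.824). Of these, Rrp7a had the lowest counts and the widest errors, with 9.71 ± 1.38 CPM, 4.85 ± 1.97 CPM and 3.36 ± 1.53 CPM and a 12 h change of -1.53 ± 0.34 (adjusted p = 0.000718). The steps between the times of Nop14 (-0.24 without 6 h library 1, -0.22 without 12 h library 1, -0.25 without 12 h library 3) and Nop9 (-0.25 without 6 h library 2) were not called without those libraries.

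**Figure D3:**
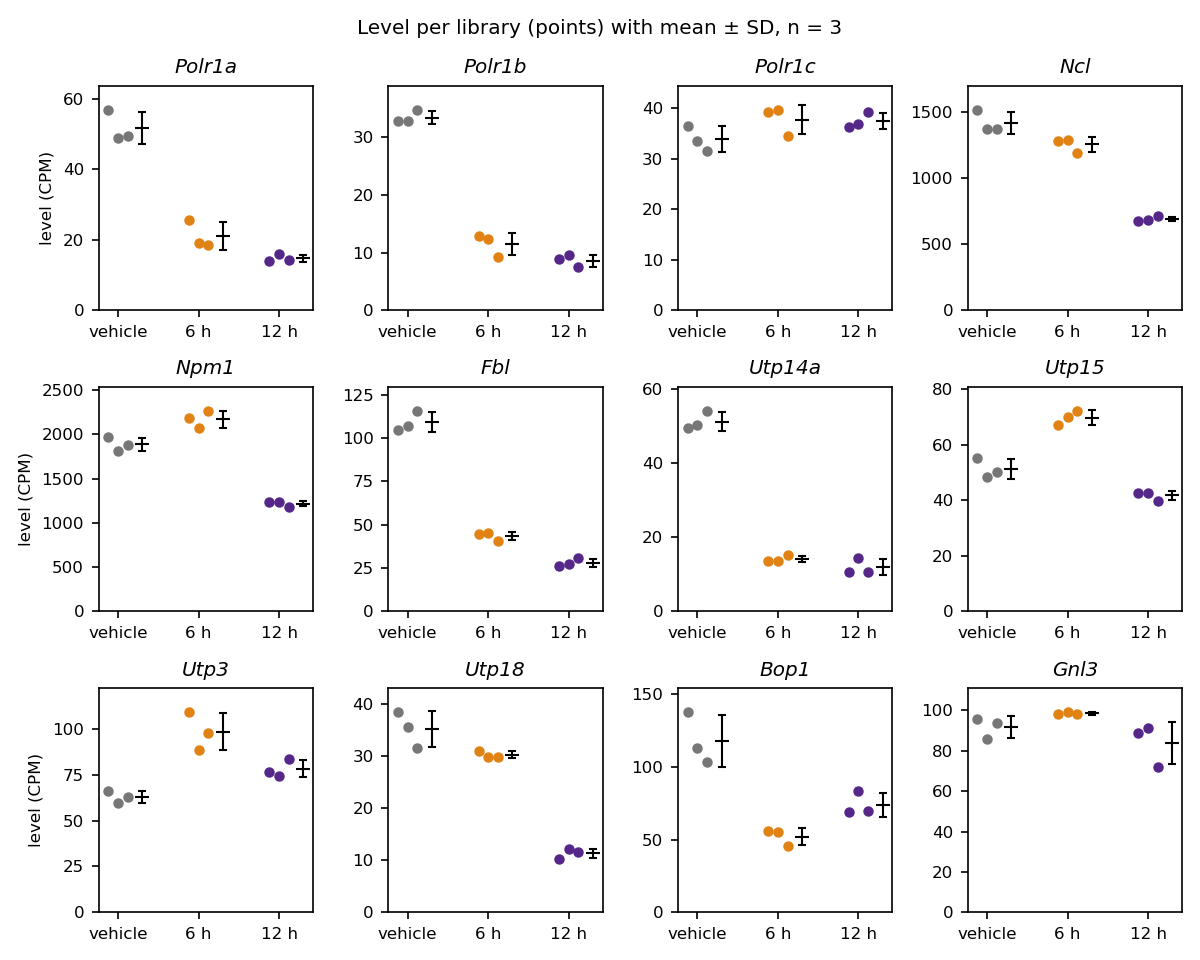
Level in CPM (y axis, from 0) of 12 of the genes in each library (points), with mean ± SD of 3 libraries beside them, for vehicle, PMA 6 h and PMA 12 h. Polr1a, Polr1b, Fbl and Utp14a fell by 6 h, Ncl and Utp18 mainly between 6 h and 12 h, and Npm1, Utp15 and Utp3 were highest at 6 h.

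Among the 11 genes of the large subunit pathway, 9 fell at 6 h (81.8%, against 39.0% of all genes) and 10 at 12 h (90.9%, against 38.2%), with Gnl2 (at 6 h) and Gnl3 (at both times) not called. Rrp15, an early assembly factor, was at 39.4, 34.0 and 35.3 CPM in vehicle, 15.1, 15.9 and 9.94 CPM at 6 h and 11.0, 14.0 and 10.9 CPM at 12 h. Both PMA groups lay far below vehicle and overlapped each other. Its changes were -1.41 ± 0.16 (adjusted p = 3.67e-07) and -1.59 ± 0.16 (adjusted p = 1.07e-07), with -0.18 ± 0.17 between the times (adjusted p = 0.4). Nop16, another assembly factor, was at 125, 115 and 119 CPM, then 47.8, 48.9 and 48.7 CPM, then 46.5, 43.2 and 43.6 CPM. Its 12 h libraries lay below its 6 h libraries by little. It changed by -1.30 ± 0.08 (adjusted p = 8.32e-11) and -1.43 ± 0.08 (adjusted p = 3.11e-11), and the step of -0.12 ± 0.08 was not called (adjusted p = 0.214).

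Bop1, Pes1 and Wdr12 form the PeBoW complex, which is needed to cut out the large subunit RNAs, and their courses differed. Bop1 was at 137, 113 and 103 CPM in vehicle, 55.8, 54.9 and 45.3 CPM at 6 h and 68.8, 83.2 and 69.3 CPM at 12 h. It was lowest at 6 h and came part of the way back, without overlap between any groups. It changed by -1.18 ± 0.12 at 6 h (adjusted p = 9.17e-08), was at -0.68 ± 0.11 at 12 h (adjusted p = 5.06e-05), and was the one gene of the 35 called higher at 12 h than at 6 h (0.51 ± 0.12, adjusted p = 0.00183). In the RefSeq annotation of the newer assembly GRCr8 its span overlaps Scx and Mroh1, and the counts do not use strand, so its reads and theirs are not fully parted. Wdr12 fell in both steps, from 44.5 ± 5.18 CPM to 28.1 ± 2.01 CPM and 21.1 ± 0.725 CPM. Pes1 had the smallest 12 h fall of the complex, from 124 ± 5.57 CPM to 101.4 ± 6.54 CPM and 93.6 ± 3.93 CPM (-0.41 ± 0.08, adjusted p = 0.000116), and its step after 6 h of -0.12 ± 0.08 was not called (adjusted p = 0.225).

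Nucleolar GTPases of the Gnl family behaved unlike each other. Gnl3, which encodes nucleostemin and is known for its abundance in stem cells, was at 95.9, 85.8 and 93.9 CPM in vehicle, 98.2, 99.2 and 98.1 CPM at 6 h and 88.7, 91.1 and 72.1 CPM at 12 h. The 6 h libraries stood just above vehicle, and the 12 h libraries overlapped vehicle. Neither change against vehicle was called (0.10 ± 0.09, adjusted p = 0.312, and -0.13 ± 0.09, adjusted p = 0.2). With upper-quartile scaling its 6 h change was -0.16 and its 12 h change -0.40, and the latter was called. The step between the times of -0.23 ± 0.09 was called (adjusted p = 0.0422), but not when any one of vehicle library 2, the 3 libraries at 6 h or 12 h library 3 was left out (-0.23 to -0.13).

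Gnl3l, its closest relative, fell early, from 62.6 ± 2.89 CPM to 27.5 ± 1.99 CPM and 25.1 ± 1.39 CPM. Gnl2, which checks the nuclear large subunit before export, was at 83.1, 70.6 and 78.3 CPM in vehicle, 75.9, 67.4 and 77.6 CPM at 6 h and 47.2, 50.3 and 49.9 CPM at 12 h. It overlapped vehicle at 6 h and fell clear of it at 12 h. The changes were -0.07 ± 0.09 (adjusted p = 0.478), -0.66 ± 0.09 (adjusted p = 3.77e-06) and, between the times, -0.59 ± 0.09 (adjusted p = 4.27e-05). The 6 h change of Gnl2 was called lower with upper-quartile scaling (-0.33, adjusted p = 0.00295) and with library totals alone (-0.61, adjusted p = 9.68e-06). Gnl1, a GTPase of this family that was placed in no ribosome pathway here, fell from 95.8 ± 3.81 CPM to 69.3 ± 1.83 CPM and 51.7 ± 6.19 CPM, by -0.47 ± 0.09 and -0.89 ± 0.09 (adjusted p = 0.000141 and 1.01e-07).

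Enzymes that methylate large subunit RNA fell in both steps. Rrp8, which methylates an adenine, was at 16.7, 14.3 and 14.9 CPM in vehicle, 11.4, 9.99 and 13.2 CPM at 6 h and 6.53, 8.72 and 8.15 CPM at 12 h. No groups overlapped, although the 6 h libraries came close to vehicle. The changes were -0.41 ± 0.16 (adjusted p = 0.031), -0.98 ± 0.17 (adjusted p = 5.22e-05) and, between the times, -0.57 ± 0.17 (adjusted p = 0.011). The first was not called without vehicle library 1 (-0.34), 6 h library 1 (-0.40) or 6 h library 2 (-0.31), nor the last without 6 h library 3 (-0.45) or 12 h library 1 (-0.45). Nop2, which methylates a cytosine and is known as a proliferation antigen, went from 134 ± 16.5 CPM to 88.2 ± 7.00 CPM and 61.6 ± 5.16 CPM. Rrp1, the remaining gene, went from 67.0 ± 6.46 CPM to 37.9 ± 0.322 CPM and 33.4 ± 3.94 CPM.

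Time courses were sorted by the calls of the 3 comparisons. In 17 of the 35 genes the level fell by 6 h and again by 12 h, a course seen in 6.00% of all genes tested, and these include Ncl, Polr1a, Polr1b, Polr1e, the 3 box C/D core genes, Gar1, Nop10, Rrp9, Utp20, Nop2 and Wdr12. With 1 library left out, a call behind this course could be lost for Ncl, Rrp8, Polr1b, Polr1e, Nop10, Nop14 and Nop9. In 8 the level fell by 6 h with no call afterwards (18.0% of all genes), as in Utp14a, Rrp15, Nop16 and Gnl3l. Dkc1, Gnl2 and Utp18 had no call at 6 h and fell later (4.16% of all genes), a course that depends on scaling, since all 3 were called lower at 6 h with upper-quartile scaling and with library totals alone. Npm1, Utp3, Utp15 and Utp23 rose and then fell back (15.0% of all genes), which depends on scaling too. With upper-quartile scaling only Utp3 of these was called higher at 6 h, and with library totals alone none was. Bop1 fell and then rose in part, a course whose share of all genes was not counted, and Gnl3 and Polr1c had none of these courses. By role, the median changes at 6 h and 12 h were -0.95 and -1.50 for the 4 polymerase subunits of the naming rule. They were -0.91 and -1.26 for the box C/D core and -0.48 and -0.99 for the box H/ACA core. For the small subunit genes they were -0.78 and -1.08, and for the large subunit genes -0.66 and -1.003.

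Other genes of the pathway were listed by function outside the naming rule, among them 19 partners of RNA polymerase I. These partners take in further subunits of the enzyme, such as Znrd1. Of these, at 6 h 8 rose (42.1%, against 37.8% of all genes) and 9 fell (47.4%, against 39.0%), and at 12 h 3 rose (15.8%, against 37.7%) and 11 fell (57.9%, against 38.2%), with medians of -0.19 and -0.47. The 6 h shares were near those of all genes. With library totals alone the 6 h count was 4 higher and 11 lower. Tcof1, the treacle protein that links transcription and modification of the precursor, fell from 77.0 ± 13.3 CPM to 22.0 ± 3.07 CPM and 11.2 ± 1.13 CPM. Ubtf, the factor that binds the ribosomal gene promoter, went the other way at 6 h: it was at 106, 102 and 125 CPM in vehicle, 258, 259 and 216 CPM at 6 h and 84.3, 86.3 and 84.4 CPM at 12 h. It rose by 1.14 ± 0.09 (adjusted p = 2.38e-09) and then stood below vehicle (-0.38 ± 0.09, adjusted p = 0.000936). The nucleolar helicase Ddx21 fell from 291 ± 26.3 CPM to 195 ± 4.998 CPM and 128 ± 7.79 CPM, while the subunit Znrd1 rose from 12.3 ± 0.828 CPM to 27.4 ± 0.266 CPM and 31.9 ± 7.10 CPM (1.16 ± 0.15 and 1.38 ± 0.15, adjusted p = 1.43e-06 and 1.82e-07).

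Lists of other processing and assembly factors mostly moved downward with the named genes. Of 38 further small subunit processome genes, 23 fell and 6 rose at 6 h and 31 fell and 1 rose at 12 h (medians -0.51 and -1.01), which is 60.5% and 81.6% lower against 39.0% and 38.2% of all genes. The acetyltransferase Nat10 fell from 62.2 ± 7.05 CPM to 12.6 ± 2.58 CPM and 15.7 ± 1.16 CPM, and the helicase Ddx47 was the one that rose at both times, from 80.2 ± 2.79 CPM to 202 ± 5.83 CPM and 180 ± 9.77 CPM. Of 39 large subunit assembly genes, 21 fell and 7 rose at 6 h and 30 fell and 4 rose at 12 h (medians -0.35 and -0.71; 53.8% and 76.9% lower, against the same shares of all genes), with Nle1, a WD-repeat assembly factor, at -1.89 ± 0.18 and -1.65 ± 0.17. The numbers that rose at 6 h in these lists, 6 and 7, were 3 and 4 with upper-quartile scaling and 1 and 0 with library totals alone.

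Of 9 snoRNP assembly genes, 7 fell at 6 h (77.8%, against 39.0% of all genes) and 8 at 12 h (88.9%, against 38.2%; medians -1.14 and -1.38), and Shq1, the chaperone of dyskerin, fell from 15.4 ± 1.45 CPM to 3.61 ± 0.722 CPM and 2.7 ± 0.254 CPM. For the RNA exosome, which trims the precursor, 9 of 12 genes fell at 6 h (75.0%) and 11 at 12 h (91.7%; medians -0.70 and -1.41). Exosc2, a cap subunit, went from 37.0 ± 3.91 CPM to 4.51 ± 0.660 CPM and 3.47 ± 1.69 CPM. RNA polymerase III makes the remaining ribosomal RNA, 5S, and of its 14 listed genes 8 fell and 3 rose at 6 h and 9 fell and 3 rose at 12 h (medians -0.40 and -0.60). The shares of these that fell were 57.1% and 64.3%, against 39.0% and 38.2% of all genes, and 21.4% rose at each time, against 37.8% and 37.7%. The 3 that rose at 6 h, Maf1 (0.89), Brf2 (1.32) and Bdp1 (1.00), are factors of this polymerase and not subunits. With library totals alone Bdp1 was not called at 6 h (0.47). At 12 h Maf1 (0.49), Bdp1 (0.55) and the subunit Crcp (0.72) were the 3 that rose. Polr3g, the subunit known from stem cells, went from 42.9 ± 2.30 CPM to 6.75 ± 0.517 CPM and 7.14 ± 1.06 CPM.

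**Figure D4:**
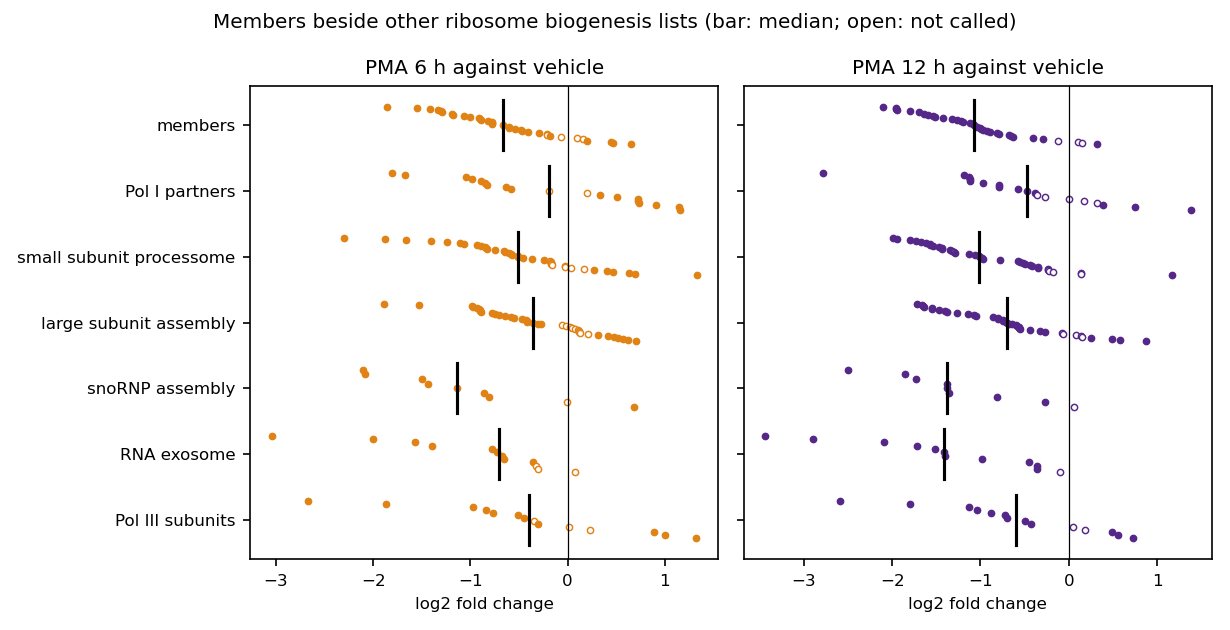
Log2 fold change (x axis) of each tested gene in the 35 ribosome biogenesis genes (top) and 6 further lists, at 6 h (left) and 12 h (right), with open points where the gene was not called and a bar at the median. All 7 medians are below 0, from -0.19 to -1.14 at 6 h and from -0.47 to -1.41 at 12 h.

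Myc, whose product activates many ribosome biogenesis genes, did not fall with them. It was at 171, 177 and 192 CPM in vehicle, 318, 314 and 301 CPM at 6 h and 473, 489 and 464 CPM at 12 h. This was a change of 0.79 ± 0.07 at 6 h (adjusted p = 1.44e-08) and 1.40 ± 0.07 at 12 h (adjusted p = 8.27e-12). Mxd1, a repressor that shares the partner Max with Myc, was at 48.6 ± 8.22 CPM in vehicle, 1385 ± 85.0 CPM at 6 h and 451 ± 76.4 CPM at 12 h. Both belong to a list of Myc network and polymerase I regulator genes, 13 of them tested. Of these, 7 rose and 3 fell at 6 h (37.8% and 39.0% of all genes). At 12 h 8 rose and 3 fell (37.7% and 38.2%). Mycl was among those that fell, at -1.87 and -1.05. The part of these regulators in the fall of the ribosome biogenesis genes was not tested.

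The CACGTG E-box is the sequence that Myc-Max and Mxd-Max pairs are known to bind, and it was searched in the promoters, from 250 bases before to 50 after the start, of the RefSeq table on build GRCr8. The motif is its own reverse complement, so 1 strand covers both. A promoter was found for 33 of the 36 genes, and 12 of these 33 (36.4%) held the motif. The share was 9.77% in 8262 promoters of tested genes and 6.42% in all 33469 promoters of the table. In 8 genes the motif lay before the start and in 4 (Fbl, Nop2, Rrp15 and Rrp8) after it only. Stretches around the motif, in capitals, are shown for 5 genes whose time courses differ: Utp20 fell in both steps, Utp18 and Dkc1 late, Pes1 early and Gnl3 was not called against vehicle. They read 5′ to 3′ on the gene's strand, with the motif's first base 127, 90, 184, 50 and 25 bases before the start, in the order shown, at chr7:25102941-25103006 (minus strand), chr10:79335812-79335877 (minus), chrX:157751437-157751502 (plus), chr14:83074266-83074331 (plus) and chr16:6219783-6219837 (minus).
Utp20: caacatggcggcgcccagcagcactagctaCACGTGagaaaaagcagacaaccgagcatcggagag
Utp18: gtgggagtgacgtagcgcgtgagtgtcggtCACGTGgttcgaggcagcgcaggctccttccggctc
Dkc1: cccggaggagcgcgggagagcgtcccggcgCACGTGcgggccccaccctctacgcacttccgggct
Pes1: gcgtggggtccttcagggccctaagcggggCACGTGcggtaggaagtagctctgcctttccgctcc
Gnl3: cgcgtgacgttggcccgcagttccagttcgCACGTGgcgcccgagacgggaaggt

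The fall was then set beside the presence of the E-box. Of the 12 genes with it, 9 fell at 6 h and 11 at 12 h, with medians of -0.53 and -1.06, where 39.0% and 38.2% of all genes fell. Of the 20 tested genes with a promoter and no such motif, 16 and 18 fell, with medians of -0.78 and -1.14. The motif stood before Utp18, which changed by -1.64 at 12 h, and before Gnl3, which was not called against vehicle with the main scaling. Their promoters differ, since Utp18 held 2 motifs, the other after its start, and Gnl3 held 1. The part of the motif in these changes was not tested. A match is a description of these letters and not of binding.

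Small nucleolar RNA genes lie inside the RefSeq spans of 4 of the 36 genes (11.1%), against 2.6% of 9990 tested genes that were matched. They are Nop56 and Nop58 with 5 each, and Ncl and Gnl3 with 3 each. Nop56, Nop58 and Ncl fell at 12 h, and Gnl3 was at -0.13, not called, but was called lower with upper-quartile scaling (-0.40, adjusted p = 0.000581) and with library totals alone (-0.71, adjusted p = 2.07e-06). Spans of 12 of the 36 genes overlap another gene in that annotation, such as Rrp9 with Parp3, Utp18 with Mbtd1, Gnl3 with Pbrm1 and Wdr12 with Carf. Reads in shared exons were counted to neither gene. Ambiguous reads were 0.526% to 0.740% of the reads of a library, a share that sets no limit for a single gene. The levels of these genes are therefore uncertain, by an amount that was not tested.

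Per library, the mean log2 CPM of the 35 genes was 6.20, 6.08 and 6.13 in vehicle, 5.60, 5.52 and 5.43 at 6 h and 5.06, 5.10 and 5.07 at 12 h. The 3 groups stood apart in order, with little spread within each. A list of 26 DNA replication and mitosis genes moved in the same order and further: its mean was 5.42, 6.18 and 6.71 in vehicle, 2.16, 2.15 and 2.39 at 6 h and 1.82, 1.83 and 1.52 at 12 h. Of these 26 genes 25 fell at 6 h and 25 at 12 h (39.0% and 38.2% of all genes), with medians of -4.17 and -4.77. The vehicle libraries ran from 5.42 to 6.71 in the mean of the replication genes. The ribosome biogenesis means of the same libraries ran from 6.08 to 6.20. The part of proliferation in the fall of the ribosome biogenesis genes was not tested.

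**Figure D5:**
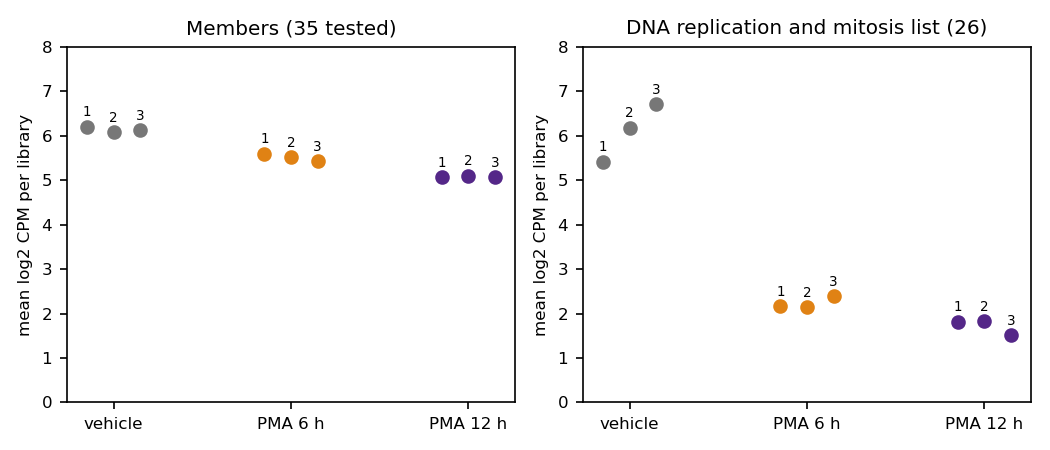
Mean log2 CPM per library (y axis, replicate numbers above the points) of the 35 ribosome biogenesis genes (left) and of 26 DNA replication and mitosis genes (right) in vehicle, PMA 6 h and PMA 12 h. The left means run from 6.20 down to 5.06 with tight groups, and the right means from 6.71 down to 1.52 with vehicle libraries spread from 5.42 to 6.71.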

How the data were processed

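RNA-seq of 9 libraries was used, grouped by their labels. The authors deposited a count per gene and library, made with STAR 2.7.5b on build rn6 per the submitters' processing notes, and the gene annotation they counted on is not stated in these sources. The unstranded column was used, its 4 summary lines were left out, and a deposited normalized table was not used here. Counts were fitted in R 4.3.3 with edgeR 4.0.16 (TMM scaling, filterByExpr with a minimum count of 10, robust quasi-likelihood F test, group as the only term, all 9 libraries in 1 fit). Alternatives used limma 3.58.1 (voom), DESeq2 1.42.0, other scalings, no filter, the replicate number as a block, only the groups compared, and each library left out. The script was tested on simulated data.

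Members, roles and gene lists were chosen with earlier results of these data known. Library values are given for Ncl, Npm1, Fbl, Dkc1, Polr1a, Polr1b, Gnl3, the 2 largest called changes per role and comparison, genes called against their role's majority, and genes never called. From the other lists, only the 3 largest called changes per time and genes called against the list's majority were named. Floors cover counting error only. RefSeq tables of GRCr8 served for promoters and neighbouring genes (35 symbols matched directly and 1 by synonym).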

Additional observations from a re-analysis of the deposited data

Results flagged for a closer look

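Against the shared vehicle libraries the 2 PMA times differed in 26 of the 35 genes, by edgeR's test of 12 h against 6 h (adjusted p under 0.05). The same test called 51.1% of all genes. The log2 fold changes of that step follow. The box C/D and H/ACA core genes changed by -0.63 (Fbl), -0.48 (Nop56), -0.31 (Nop58), -0.78 (Dkc1), -0.74 (Gar1) and -0.32 (Nop10). The nucleolar proteins changed by -0.86 (Ncl) and -0.83 (Npm1), and the polymerase subunits by -0.51 (Polr1a), -0.40 (Polr1b) and -0.59 (Polr1e). Small subunit genes changed by -1.42 (Utp18), -0.89 (Rrp9), -0.80 (Utp20), -0.74 (Utp15), -0.37 (Utp23), -0.33 (Utp3), -0.30 (Nop14) and -0.27 (Nop9). Large subunit genes changed by -0.59 (Gnl2), -0.57 (Rrp8), -0.52 (Nop2), -0.41 (Wdr12), -0.23 (Gnl3) and 0.51 (Bop1), and Gnl1 changed by -0.42. Npm1 and Utp15 were called higher than vehicle at 6 h and lower at 12 h with the main scaling. Neither 6 h rise was called with upper-quartile scaling (-0.05 and 0.19). With library totals alone Npm1 was called lower at 6 h (-0.33, adjusted p = 0.000449) and Utp15 was not called (-0.09).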

How the results depend on the processing

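Counts of genes that fell kept within 1.5 times of their value under every alternative run, at 24 to 32 at 6 h, 31 to 35 at 12 h and 19 to 26 between the times. The counts of genes that rose did not: 1 at 6 h and 0 at 12 h with upper-quartile scaling, and 0 at both times with library totals alone. Upper-quartile scaling turned the sign at 6 h for Npm1 (-0.0547), Gnl3 (-0.16) and Polr1c (-0.10), and at 12 h for Utp23 (-0.17) and Polr1c (-0.13). Library totals alone turned it at 6 h for Npm1 (-0.33), Gnl3 (-0.44), Utp15 (-0.0936), Utp23 (-0.0668) and Polr1c (-0.38), and at 12 h for Utp3 (-0.27), Utp23 (-0.48) and Polr1c (-0.44). These scalings set the median of all genes at -0.29 and -0.57 at 6 h, where it was -0.03 with TMM. At 6 h both scalings also called Dkc1, Gnl2 and Utp18 lower, and at 12 h Gnl3. With library totals alone 32 of the 35 genes were called lower at 6 h, all but Utp3, Utp15 and Utp23. At 12 h library totals alone called all 35 lower, Utp3 (adjusted p = 0.0132), Utp23 (adjusted p = 0.00465) and Polr1c (adjusted p = 0.00075) included. With 1 library left out, the counts were 3 to 4 higher and 24 to 27 lower at 6 h, 1 higher and 31 lower at 12 h, and 1 higher and 19 to 26 lower from 6 h to 12 h. The uncalled step from 6 h to 12 h turned above 0 for Polr1c without 6 h library 1 (0.0185) or 2 (0.0264) or 12 h library 1 (0.0143) or 2 (0.004), and for Utp11l without 6 h library 3 (0.0369) or 12 h library 3 (0.0259), with ranges over the left-out libraries of -0.0701 to 0.0264 and -0.116 to 0.0369.

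Same-numbered libraries did not deviate together (correlations of -0.115 to 0.027, 0 of 9 above 0.1), so no pairing by number was seen. With 3 libraries per group this cannot exclude a shared culture or preparation behind the numbers, which the labels do not state. With the replicate number as a block, 4 genes rose and 25 fell at 6 h, 1 rose and 31 fell at 12 h, and 1 rose and 24 fell between the times. The calls not made under the block were Ncl at 6 h (-0.18, adjusted p = 0.0562) and Gnl3 between the times (-0.23, adjusted p = 0.0559). Depth limits mainly Rrp7a and Polr1e, whose 12 h changes had the widest standard errors of the 35 genes (0.34 and 0.19).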
